A study of Mus musculus with 38 samples.

Results

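The neurotrophin system was followed at the level of RNA in 7 of the 54165 genes of a count table, chosen by symbol: the neurotrophins Bdnf and Ntf3, the receptors Ntrk2, Ntrk3, and Ngfr, the sorting receptor Sort1, and the neurotrophin-responsive secreted protein gene Vgf. Each symbol matched 1 gene. The RNA came from the prefrontal cortex (PFC) and the hypothalamus (Hypo) of adult FVB/NJ mice. Ube3a2X mice are homozygous for a transgene that adds copies of Ube3a, a ubiquitin ligase gene, with a tag at the C-terminus of the protein, and wild-type (WT) littermates served as controls. All mutants belong to 1 transgenic line. There were 20 PFC libraries, 5 for each sex and genotype, and 18 Hypo libraries, with 4 WT and 5 Ube3a2X mice in each sex, and 13 of the 25 mice gave both tissues. The libraries allow the genes to be compared between the tissues, between the genotypes, and between the sexes. Within each tissue the study tested its transcriptomes for sex, for genotype, and for their interaction.

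Neurotrophins are secreted growth factors that neurons use to regulate survival, branching, and synaptic strength. Bdnf, the product of Bdnf, acts through the tyrosine kinase receptor TrkB (Ntrk2), and neurotrophin-3 (Ntf3) mainly through TrkC (Ntrk3). The low-affinity receptor p75 (Ngfr) binds all neurotrophins and, together with sortilin (Sort1), their uncleaved precursors, and sortilin also directs Bdnf into the regulated secretory pathway. Bdnf is transcribed in cortical neurons from several alternative promoters that respond to activity, and Vgf encodes a granin-like precursor of secreted peptides that rises with neurotrophin signaling and has its best known role in hypothalamic energy balance.

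The windows around annotated starts of ligand and receptor genes are shown as background. The counts are per gene, so no tissue difference below can be assigned to a window. RefSeq windows on GRCm38.p6 of 300 bases each were at hand for 4 of the genes, namely 7 for Bdnf, 2 for Ntf3, and 1 each for Ntrk2 and Ngfr. They were searched on both strands for the cAMP response element TGACGTCA, its partial site (the first 5 bases, TGACG), the AP-1 site TGACTCA, and the E-box CACGTG, where a full cAMP response element also counts as a partial site. Of all 32851 windows, 1.79% hold the full element, 20.8% a partial site, 5.2% an AP-1 site, and 7.15% the E-box. Of the 11 windows, 1 of Bdnf holds a partial site (read as CGTCA on the printed strand, in capitals), 1 of Ntf3 holds the E-box (in capitals), and those of Ntrk2 and Ngfr hold none of these letters, which says nothing of the factors that bind there. The Bdnf window is chr2:109692186-109692485 on the plus strand, the Ntf3 window chr6:126166695-126166994 on the minus strand, and the Ngfr window chr11:95587649-95587948 on the minus strand. The Ngfr window is the richest in G and C, at 71.7% against 48.7% for this Bdnf window and 61.0% for the Ntf3 window.
Bdnf: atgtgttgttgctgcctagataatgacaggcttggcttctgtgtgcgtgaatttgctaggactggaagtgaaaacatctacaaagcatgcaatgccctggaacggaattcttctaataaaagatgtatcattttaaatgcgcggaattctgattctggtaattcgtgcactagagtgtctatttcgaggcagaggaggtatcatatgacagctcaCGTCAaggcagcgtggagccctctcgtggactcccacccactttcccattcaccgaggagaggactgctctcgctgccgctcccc
Ntf3: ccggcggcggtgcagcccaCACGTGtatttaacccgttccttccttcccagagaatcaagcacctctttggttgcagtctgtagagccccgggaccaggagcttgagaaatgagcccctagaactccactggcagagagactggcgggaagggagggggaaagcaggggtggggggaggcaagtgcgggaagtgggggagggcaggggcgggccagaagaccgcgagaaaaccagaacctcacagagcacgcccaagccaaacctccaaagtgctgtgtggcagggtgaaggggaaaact
Ngfr: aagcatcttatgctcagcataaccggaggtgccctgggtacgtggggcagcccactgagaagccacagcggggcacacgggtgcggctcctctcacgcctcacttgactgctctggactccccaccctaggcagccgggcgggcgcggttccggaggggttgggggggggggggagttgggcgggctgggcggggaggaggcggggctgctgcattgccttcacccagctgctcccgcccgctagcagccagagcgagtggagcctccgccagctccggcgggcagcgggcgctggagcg

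Counts of reads per gene were read as CPM (counts per mega-read of library size) after TMM normalization. Levels of different genes were compared per kilobase of annotated exon, with the exon bases of all forms of a gene counted once. In the GRCm38 annotation all 7 genes are protein coding. Bdnf lies on chromosome 2 (109674700 to 109727007, plus strand), Ntrk2 on chromosome 13 (58806569 to 59133970, plus strand), Ngfr on chromosome 11 (95568818 to 95587735, minus strand), and Sort1 on chromosome 3 (108284082 to 108361511, plus strand). Ntf3 lies on chromosome 6, Ntrk3 on chromosome 7, and Vgf on chromosome 5. Bdnf shares exon bases with the antisense gene Gm45346 and Sort1 with Gm12523, and 91.5 to 99.1% of the reads of each library lay on the expected strand. The counts are per gene, so the full-length and the kinase-lacking forms of the Ntrk2 and Ntrk3 receptors could not be separated.

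The libraries held 36.9 to 69.1 M counted reads (mega-reads) in the PFC and 39.0 to 380.8 M in the Hypo. Ube3a was at 186 to 268 CPM in WT PFC and 698 to 2269 CPM in Ube3a2X PFC, and at 105 to 349 and 706 to 1666 CPM in the Hypo, so the genotypes did not overlap. The sums of 10 hypothalamic neuron markers were 500 to 2169 CPM in the Hypo and 1.13 to 3.94 CPM in the PFC, and those of 8 excitatory cortical neuron markers 303 to 608 and 5691 to 10577 CPM, as the tissue labels say. RNA integrity (RIN) was 6.7 to 8.9 in the PFC (median 7.6) and 6.8 to 9.3 in the Hypo (median 8.95). WT female 471 of the Hypo stood apart: 5 pituitary markers summed to 4667 CPM there, of which the prolactin gene Prl made up 3541 CPM, against 14.0 to 932 CPM in the other Hypo libraries. Hypo tissue differed from PFC tissue also in the RNA extraction kit, and this and the tissue cannot be told apart.

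Measured per kilobase of exon, Sort1 was the most abundant of the 7 transcripts in the PFC and Ntrk2 in the Hypo. The order depends on the annotated exon length, 7569 bases for Sort1, 19292 for Ntrk2, and 30170 for Ntrk3. In CPM, not divided by length, Ntrk2 (median 863) was above Sort1 (median 810) in the PFC. The PFC levels in CPM per kilobase (mean ± SD, n = 20) were 108 ± 9.05 for Sort1, 46.0 ± 5.04 for Ntrk2, 42.0 ± 12.3 for Vgf, 8.97 ± 1.16 for Ntrk3, 6.93 ± 2.52 for Bdnf, 0.624 ± 0.293 for Ntf3, and 0.287 ± 0.0998 for Ngfr. The Hypo levels on the same scale (n = 18) were 60.0007 ± 6.48 for Ntrk2, 40.2 ± 18.5 for Vgf, 33.9 ± 5.35 for Sort1, 7.83 ± 1.37 for Ntrk3, 3.70 ± 0.554 for Bdnf, 1.9999 ± 0.511 for Ngfr, and 0.318 ± 0.114 for Ntf3. Neighbors in this order overlapped over the libraries for Ntrk2 and Vgf in both tissues, for Ntrk3 and Bdnf in both tissues (in the Hypo through WT female 471 alone), for Ntf3 and Ngfr in the PFC, for Vgf and Sort1 in the Hypo, and, by a narrow margin, for Bdnf (lowest 2.65) and Ngfr (highest 2.71) in the Hypo. The high-affinity receptors were thus above the neurotrophins that bind them in both tissues, Ntrk2 above Bdnf and Ntrk3 above Ntf3, without overlap between any libraries of a tissue. Ntf3 and Ngfr rest on few reads, 14 to 118 reads a library for Ntf3 and 29 to 86 for Ngfr in the PFC.

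**Figure D1:**
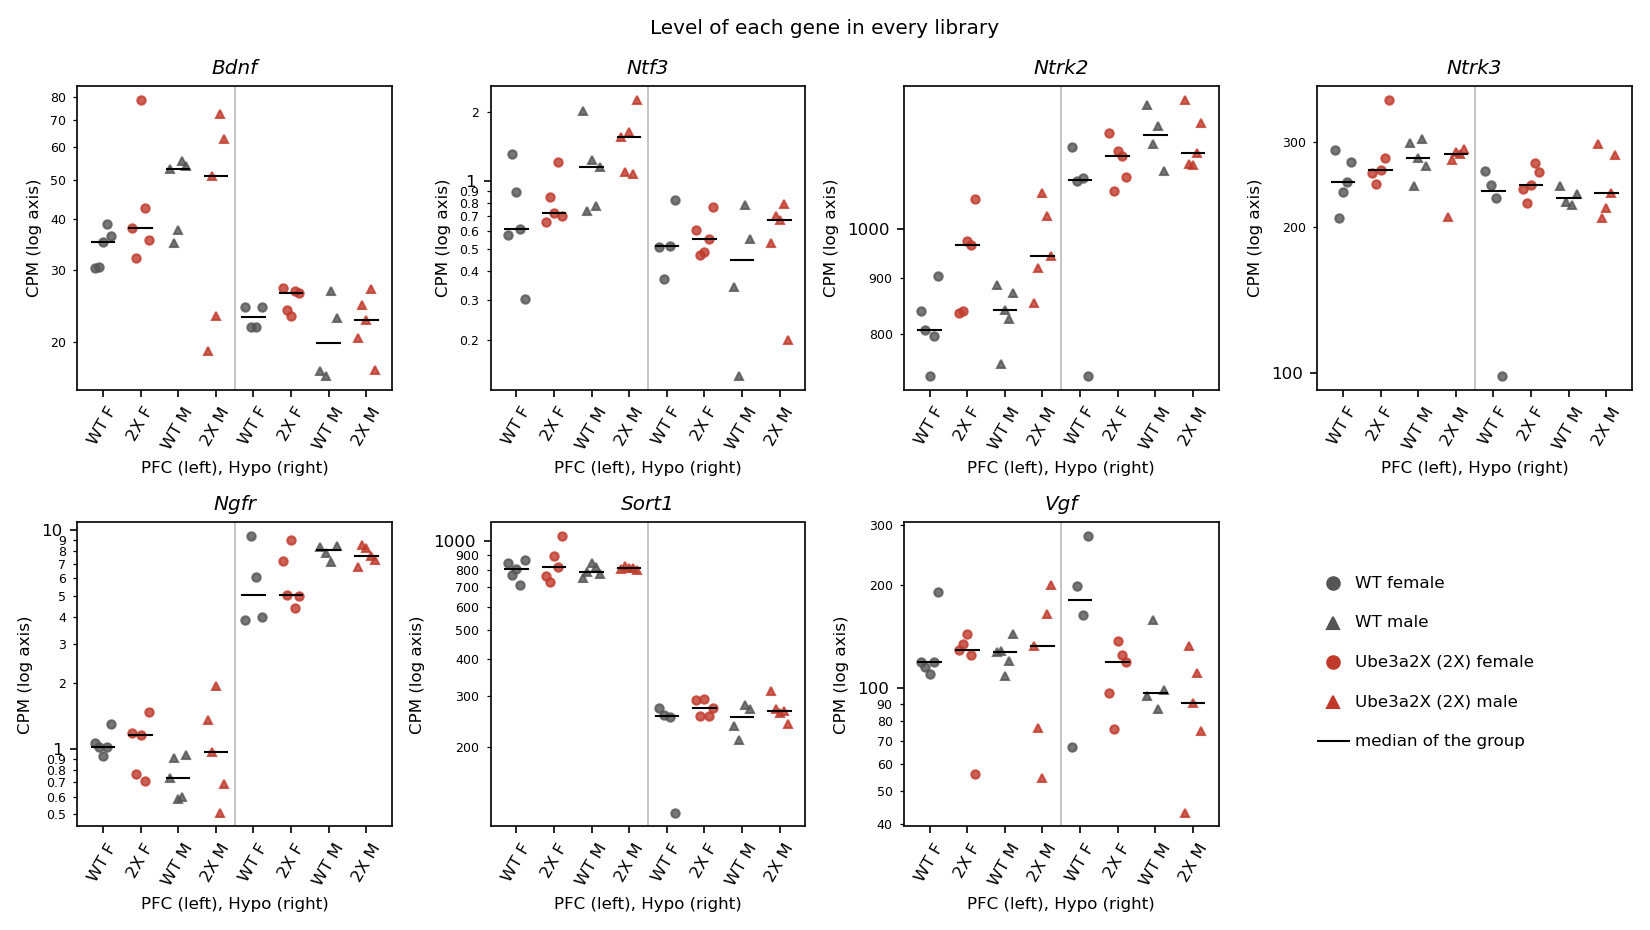
CPM after TMM normalization (log axis) of the 7 genes in each of the 38 libraries, by tissue (PFC left of the line, Hypo right), genotype (gray WT, red Ube3a2X), and sex (circles female, triangles male), with the median of each group as a bar. The PFC and Hypo libraries separate fully for Ngfr and Sort1 and overlap for the other 5 genes, and WT female 471 is the low Hypo point of Ntrk2 (731 CPM), Ntrk3 (98.5 CPM), and Sort1 (120 CPM).

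The tissues differed in 4 of the 7 genes. Averaged over genotype and sex, Sort1 and Bdnf were higher in the PFC, and Ngfr and Ntrk2 were higher in the Hypo. The tests were made with edgeR's quasi-likelihood test on 22282 genes, with RIN as a covariate and Benjamini-Hochberg adjustment over all of them. The 2 tissues are so unlike that 63.4% of all genes were called (31.0% higher and 32.4% lower in the PFC), so a count of 4 of 7 is near the background and is no result about these genes. In bulk tissue, fewer cells of a type and less RNA per cell cannot be told apart.

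Sort1, the gene of the sortilin receptor, had the smallest adjusted p of the 7. It was at 714 to 1041 CPM in the PFC (median 810, n = 20) and at 120 to 310 CPM in the Hypo (median 264, n = 18). Every PFC library was above every Hypo library, and in all 13 mice with both tissues the PFC was higher. The fold change was 3.12 (log2 1.64, SE 0.105, edgeR adjusted p = 5.61e-16). Without Hypo WT female 471, which holds the lowest value, the log2 fold change was 1.57 (adjusted p = 3.60e-21).

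Ngfr, the gene of the p75 receptor, was the opposite case. It was at 0.509 to 1.93 CPM in the PFC (median 0.947) and at 3.87 to 9.34 CPM in the Hypo (median 7.22). Again no library of one tissue reached the range of the other, and the PFC was lower in 13 of 13 mice. The level was 6.37-fold lower in the PFC (log2 -2.67, SE 0.194, edgeR adjusted p = 1.82e-14). Ngfr and Sort1 were the 2 of 7 genes whose libraries did not overlap between the tissues, and 20.4% of all genes tested were of this kind. Cholinergic neurons of the basal forebrain are the best known site of Ngfr in the adult brain. The sums of 6 cholinergic markers were 2.11 to 3.46 CPM in the PFC and 25.6 to 36.7 CPM in the Hypo. Most of the Hypo sum was Isl1, which other hypothalamic neurons also express (group medians 22.6 to 27.9 CPM), while Chat was at 0.77 to 1.16 CPM there. All 6 were called lower in the PFC in the fit with RIN, but the median CPM of Slc5a7 was higher in the PFC in 3 of the 4 sex and genotype groups. All tested markers of hypothalamic neurons (10), oligodendrocytes (7), oligodendrocyte precursors (6), tanycytes and ependyma (5), and choroid plexus (4) were called lower in the PFC as well, and 4 of 8 astrocyte and 3 of 5 pituitary markers. The part of any of these cells in the Ngfr difference was not tested.

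Ntrk2, the TrkB gene, was lower in the PFC by a small margin. Its level was 731 to 1079 CPM in the PFC (median 863) and 731 to 1317 CPM in the Hypo (median 1172). The ranges met only through Hypo WT female 471 at 731 CPM, since the other 17 Hypo libraries were at 1085 CPM or more and all 20 PFC libraries at 1079 CPM or less. The PFC was lower in 13 of 13 mice, and the fitted level was 1.30-fold lower there (log2 -0.38, SE 0.0774, edgeR adjusted p = 5.75e-05). Without that library the log2 fold change was -0.44 (adjusted p = 3.33e-08). Ntrk3, the TrkC gene, was at 210 to 367 CPM in the PFC and 98.5 to 298 CPM in the Hypo. The groups overlapped, and the log2 fold change of 0.17 (SE 0.126) did not pass the test (edgeR adjusted p = 0.245), although the PFC value was the higher one in 11 of 13 mice. It passed under 2 of 10 other settings, without RIN (log2 0.21, adjusted p = 0.0170) and after correction for GC content and gene length (log2 0.35, adjusted p = 1.76e-07). The adjusted p ranged up to 0.728 over the 10 settings.

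Among the ligands, Bdnf was higher in the PFC, with 43.1 ± 15.7 CPM (SD, n = 20) against 23.0 ± 3.44 CPM in the Hypo (n = 18). Its level was 19.0 to 78.5 CPM in the PFC (median 37.8) and 16.5 to 27.2 CPM in the Hypo (median 23.6). The PFC libraries of Ube3a2X males 238 (19.0 CPM) and 258 (23.1 CPM) lay within the Hypo range, and the remaining 18 lay above all of it. In the mice with both tissues, 12 of 13 had more Bdnf in the PFC, with a median log2 difference of 0.67. The fitted fold change was 1.54 (log2 0.63, SE 0.203, edgeR adjusted p = 0.00757). The value moved with RIN, which was lower in the PFC (median 7.6) than in the Hypo (median 8.95). The call was lost without 1 library. It was also lost in edgeR on the 13 mice alone with the mouse as a block, a fit that leaves out the other libraries. Without RIN the log2 fold change was 0.91 (adjusted p = 6.35e-08). With the mouse as a replicate block it was 0.56 in limma-voom (adjusted p = 0.0154) and 0.22 in edgeR on the 13 mice alone (adjusted p = 0.702). Without Hypo WT male 423 it was 0.49 (edgeR adjusted p = 0.0998), and this library had a RIN of 6.8, where the other Hypo libraries had 8.8 to 9.3.

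Ntf3 was the scarcer ligand and stood in the same direction. Its level was 0.303 to 2.27 CPM in the PFC (median 0.982) and 0.139 to 0.820 CPM in the Hypo (median 0.544). The ranges overlapped, 12 of 13 mice had more Ntf3 in the PFC, and the log2 fold change of 0.66 (SE 0.302) did not pass the threshold (edgeR adjusted p = 0.0572). The call was made under 5 of 9 other settings, among them limma-voom (adjusted p = 0.0403) and DESeq2 (adjusted p = 0.0370), and the adjusted p ran from 3.42e-05 without RIN to 0.263.

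Vgf did not separate the tissues. It was at 54.3 to 200.1 CPM in the PFC (median 126) and at 43.2 to 278 CPM in the Hypo (median 104), with the highest value in Hypo WT female 471. The PFC was higher in 8 of 13 mice, with a median log2 difference of 0.41. The fitted log2 difference with RIN as a covariate had the other sign, -0.08 (SE 0.268, edgeR adjusted p = 0.801), and without RIN it was 0.08 (adjusted p = 0.645).

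**Figure D2:**
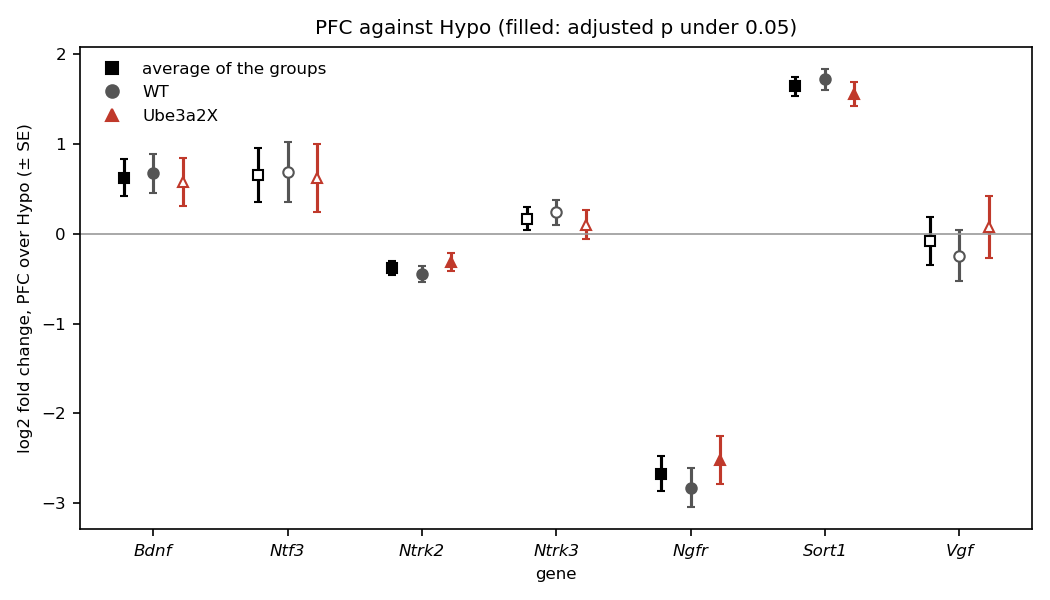
Log2 fold change of PFC over Hypo with its SE from edgeR for each gene, averaged over the groups (black squares), in WT (gray circles), and in Ube3a2X mice (red triangles), where filled symbols have an adjusted p under 0.05. Sort1 (1.64 on average) and Ngfr (-2.67) lie farthest from 0, and no gene passed the test of the difference between the WT and Ube3a2X values (smallest adjusted p 0.664).

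The tissue differences were also taken within each genotype from the same fit. In WT mice the same 4 genes were called, where 60.7% of all genes were: Bdnf (log2 0.67, adjusted p = 0.00724), Ntrk2 (-0.45, adjusted p = 2.15e-05), Ngfr (-2.83, adjusted p = 1.06e-13), and Sort1 (1.72, adjusted p = 3.04e-15), all in edgeR. In Ube3a2X mice 3 were called, where 55.5% of all genes were: Ntrk2 (log2 -0.32, adjusted p = 0.00779), Ngfr (-2.52, adjusted p = 5.33e-10), and Sort1 (1.56, adjusted p = 3.00e-12), while Bdnf was at 0.58 (adjusted p = 0.0607). This Bdnf value depended on the processing. Over 10 other settings it ran from 0.0076 in edgeR on the 13 mice with the mouse as a replicate block to 0.93 without RIN, and it was called in 3 of them, namely without RIN, with the strand share and RIN as covariates (0.65), and in DESeq2 (0.56). With each library left out in turn it was called in 4 of 38 fits, without PFC Ube3a2X male 238 (0.69, edgeR adjusted p = 0.0111), male 258 (0.74), male 267 (0.59), or female 417 (0.66). The Bdnf call in WT mice was lost in edgeR on the 13 mice with the mouse as a replicate block (0.42, adjusted p = 0.461) and without Hypo WT male 423 (0.54, adjusted p = 0.0847). The Ntrk2 call in Ube3a2X mice was lost with the mouse as a replicate block in edgeR on the 13 mice (-0.32, adjusted p = 0.179) and after correction for GC content and gene length (-0.15, adjusted p = 0.0706). The difference between the genotypes was tested itself. None of the 7 genes was called for it by edgeR, limma-voom, or DESeq2, none had an unadjusted edgeR p under 0.05, and the smallest adjusted p in edgeR was 0.664, for Ntrk2. Of all genes 0% were called and 11.1% had an unadjusted p under 0.05 in edgeR, and 0 were called by limma-voom and 34 by DESeq2.

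**Figure D3:**
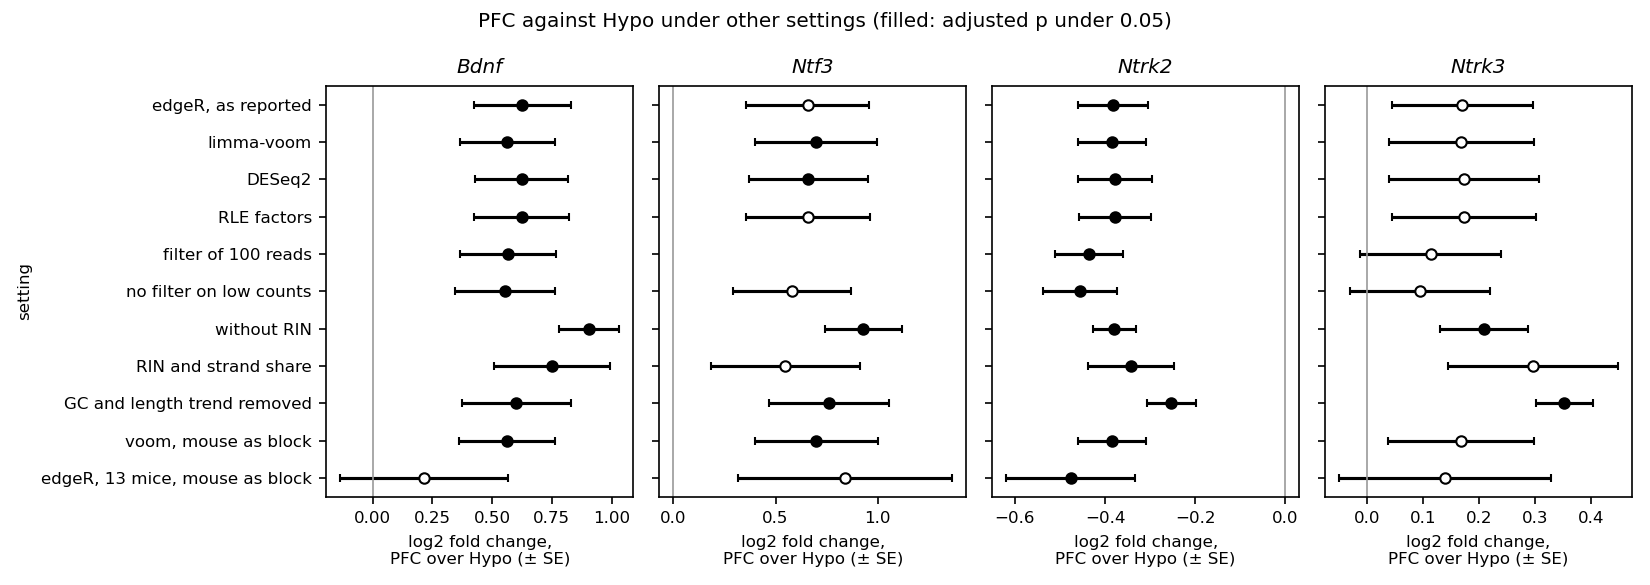
Log2 fold change of PFC over Hypo (± SE, averaged over the groups) of Bdnf, Ntf3, Ntrk2, and Ntrk3 under each setting, with filled symbols where the adjusted p is under 0.05 and no symbol where a filter removed the gene. Bdnf runs from 0.22 in edgeR on the 13 mice with both tissues, with the mouse as a block, to 0.91 without RIN. Ntrk2 stays between -0.48 and -0.25 and is called under every setting.

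Within each tissue, edgeR called no gene of the system that it could test for genotype, for sex, or for their interaction. DESeq2 called Ngfr for sex in the Hypo, a comparison for which it called 5.64% of all genes. The edgeR model held sex, genotype, RIN, and 2 surrogate variables, and was fitted to 10900 PFC genes and 11869 Hypo genes. In the PFC only Bdnf, Ntrk3, and Vgf entered it. Ntf3 and Ngfr fell under the filter on low counts, with fewer than 100 reads in 19 and 20 of the 20 libraries, and Ntrk2 and Sort1 were among the 15% of genes with the lowest variance. In the Hypo 6 genes entered, and Ntf3 did not, with fewer than 100 reads in 16 of 18 libraries. Entry into the PFC model thus depended on level and variance, and the genes left out are given by their values.

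In the PFC the mean effect of genotype on Bdnf was a log2 change of 0.03 (SE 0.233, edgeR adjusted p = 0.989), and 0 of the 3 genes were called, against 0.0183% of all genes, with 7.53% at an unadjusted p under 0.05. The fitted values for Bdnf had opposite signs in females and males, and their size rested on single libraries. The 5 WT females were at 30.3, 30.6, 35.2, 39.0, and 36.5 CPM and the 5 Ube3a2X females at 38.02, 32.2, 78.5, 42.5, and 35.6 CPM. The Ube3a2X females overlapped with the WT females except for mice 420 and 462. The 5 WT males were at 53.0, 34.9, 37.6, 55.5, and 54.0 CPM and the 5 Ube3a2X males at 19.0, 51.1, 23.1, 72.6, and 62.9 CPM, so that the Ube3a2X males lay on both sides of the WT males. The log2 change was 0.35 in females (SE 0.343) and -0.29 in males (SE 0.310), and the interaction of -0.64 (SE 0.458) did not pass the test (edgeR adjusted p = 0.375). Over 9 other settings the interaction ran from -0.72 to -0.41, and with each library left out in turn from -0.95 to -0.37, and it was not called in any of these fits. Leaving out Ube3a2X female 420 gave -0.37, and leaving out Ube3a2X male 238 gave -0.38. The female value was 0.11 without Ube3a2X female 420, 0.15 without WT female 259, 0.20 without WT female 93, and 0.61 without WT female 397. The male value was -0.03 without Ube3a2X male 238, -0.12 without Ube3a2X male 258, and -0.19 without WT male 403.

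The activity-regulated genes and Bdnf had the same highest and lowest libraries in the Ube3a2X groups of the PFC but not throughout the WT groups, a difference that was not tested. The 15 genes of activity or TrkB signaling summed to their highest value of the Ube3a2X males in mouse 267 (4018 CPM) and to their lowest in mouse 238 (1444 CPM), and to their highest value of the Ube3a2X females in mouse 420 (3226 CPM) and their lowest in mouse 417 (2275 CPM). In WT females the sum was highest in mouse 397 (2315 CPM) and lowest in mouse 259 (1723 CPM), where Bdnf was highest in 395 and lowest in 93. In WT males both were lowest in mouse 251 (a sum of 2030 CPM), while the sum was highest in 403 (3397 CPM) and Bdnf in 266. Over the 20 PFC libraries, which differ in depth and RNA quality, Bdnf had a Pearson r of 0.82 with Fos and 0.70 with Arc on log2-CPM, and the 3 genes most like it were Lipg (0.91), Enc1 (0.90), and Ptgs2 (0.90), the last being the inducible cyclooxygenase. In the Hypo r was 0.31 with Fos and 0.58 with Arc over 18 libraries.

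Vgf in the PFC was at 119, 115, 110, 119, and 191 CPM in WT females and at 129, 134, 144, 125, and 56.1 CPM in Ube3a2X females, and at 127, 128, 109, 120, and 144 CPM in WT males and 133, 76.6, 54.3, 165, and 200.1 CPM in Ube3a2X males. The values of the Ube3a2X males were the most spread and enclosed those of the WT males. The genotype effect of -0.20 (SE 0.185) had an edgeR adjusted p of 0.836, and its sign rested on 1 library: without WT female 397 the effect on Vgf was 0.06 in all PFC libraries and 0.36 in females, where it was -0.27 with all libraries. Ntrk3 had a fitted genotype effect of -0.05 (SE 0.0635, edgeR adjusted p = 0.873). Its difference of the mean log2 levels, without covariates, had the other sign, 0.05 (exact permutation p = 0.551). In females 0 of the 3 genes were called, where 0.00917% of all genes were and 15.3% had an unadjusted p under 0.05. The same count in males was 0 of 3, against 0.0183% and 19.3%, for the sex difference 0 of 3, against 0.0917% and 8.73%, and for the interaction 0 of 3, against 0% and 27.0%. None of the 3 had an unadjusted edgeR p under 0.05 in any of these comparisons, and none was called by limma-voom or DESeq2. Of all genes limma-voom and DESeq2 called 1 and 7 in females, 16 and 266 in males, 10 and 40 for the sex difference, and 0 and 862 for the interaction. The paper reports many PFC genes for the interaction, from limma-voom on a larger set of genes. The 0 found here by limma-voom departs from that result.

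Ntrk2 in the PFC differed between the genotypes in its levels, without covariates, but not in the fits across all genes. WT females were at 840, 805, 731, 795, and 904 CPM and Ube3a2X females at 836, 839, 975, 966, and 1066 CPM. WT males were at 887, 750, 841, 826, and 872 CPM and Ube3a2X males at 854, 920, 1079, 1028, and 944 CPM. In each sex 3 or 4 of the 5 mutants were above all WT mice. The mean log2 level was 0.20 higher in Ube3a2X mice (0.20 in females, 0.21 in males), with a two-sided p of 0.00205 in an exact permutation test of the genotype labels within each sex over 63504 arrangements. With each library left out in turn the p ran from 9.45e-04 to 0.00485. This test is 1 of 14 (7 genes in 2 tissues), holds no covariate, and was not adjusted. In fits across all genes that kept Ntrk2, with RIN and 2 surrogate variables, the log2 difference was 0.10 without the variance filter (SE 0.0367, edgeR adjusted p = 0.525), and over 3 such settings it was 0.10 to 0.12 with an adjusted p of 0.277 to 0.525. The median share of reads on the expected strand was 93.1% in WT PFC (92.5 to 95.6%) and 97.8% in Ube3a2X PFC (91.5 to 99.1%), and the median RIN 7.8 and 7.35. The highest Ntrk2 libraries, Ube3a2X male 258 and Ube3a2X female 468, also had the highest sums of their groups for the markers of several cell types. These were astrocytes (10848 and 7998 CPM, against at most 6638 CPM in WT PFC), endothelium and mural cells (622 and 454 CPM, against at most 423 CPM), and excitatory cortical neurons (10577 and 7932 CPM, against at most 8190 CPM). For the markers of inhibitory neurons (741 and 866 CPM) and of striatum (83.4 and 69.8 CPM), the same pair had the lowest sums of their groups. These 2 libraries also had the lowest AT dropout scores of the PFC (14.4 and 10.6). The part of these values in the difference was not tested.

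For the other 3 genes outside the PFC model the difference was within the spread. Ntf3 was at 0.303 to 2.03 CPM in WT and 0.657 to 2.27 CPM in Ube3a2X PFC (log2 difference of the means 0.34, exact permutation p = 0.179). Ngfr was at 0.588 to 1.30 and 0.509 to 1.93 CPM (0.17, exact permutation p = 0.437). Sort1 was at 714 to 864 and 730 to 1041 CPM (0.05, exact permutation p = 0.349).

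**Figure D4:**
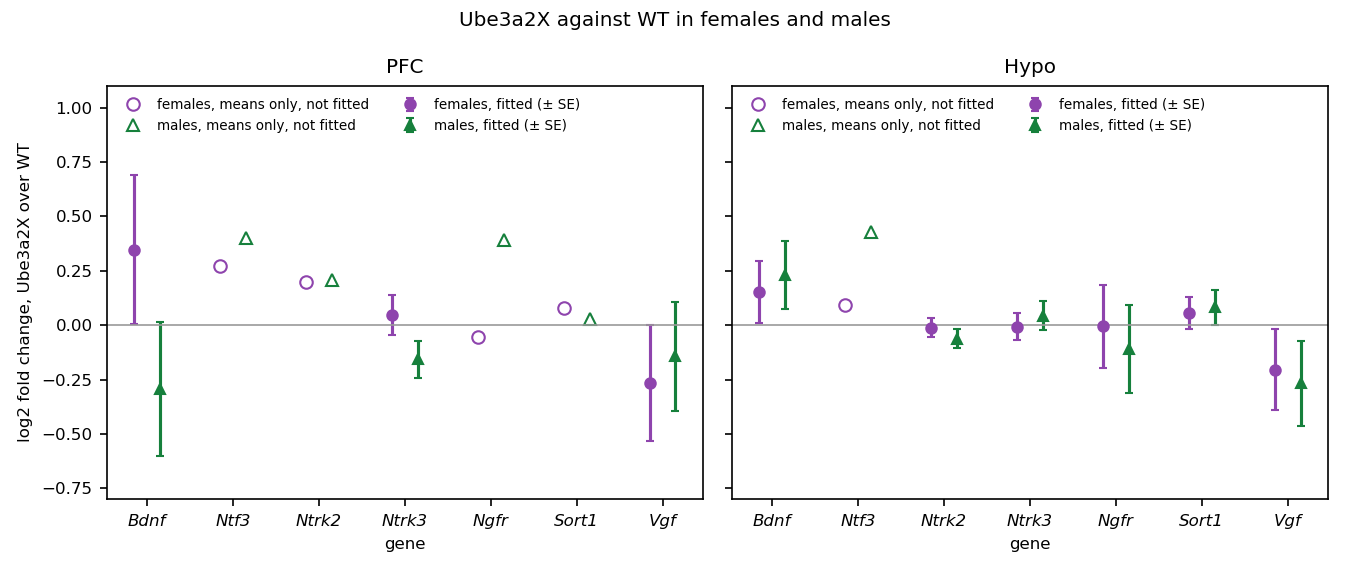
Log2 fold change of Ube3a2X over WT in females (purple circles) and males (green triangles) for each gene in the PFC and the Hypo, as fitted by edgeR with its SE (filled) or, for genes a filter removed, as the difference of the mean log2-CPM without an error (open). Bdnf in the PFC lies at 0.35 in females and -0.29 in males with SE of 0.343 and 0.310, and every fitted value lies within 2 SE of 0.

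In the Hypo no effect of genotype on these genes passed the test. Averaged over the sexes, the log2 change was 0.19 for Bdnf (SE 0.109), -0.24 for Vgf (SE 0.138), 0.07 for Sort1 (SE 0.0566), 0.02 for Ntrk3 (SE 0.0469), -0.04 for Ntrk2 (SE 0.0319), and -0.06 for Ngfr (SE 0.144). Without covariates, the differences of the mean log2 levels had the other sign for Ntrk2 (0.08) and Ngfr (0.03). The fitted sizes depended on single libraries. Bdnf was at 0.32 and Sort1 at 0.14 without WT male 403, and at 0.13 and 0.02 without WT male 251. Ngfr was at -0.14 without WT female 262 and turned to 0.10 without WT female 398. With each library left out in turn Ntrk3 ran from -0.0061 to 0.04 and Ntrk2 from -0.04 to -0.02, and none of the 6 was called in any of these fits. None of the 6 was called by edgeR, where 0.00843% of all genes were, and none had an unadjusted p under 0.05, where 5.21% had. The counts were likewise 0 of 6 in females, against 0.00843% of all genes called and 2.94% at an unadjusted p under 0.05, 0 of 6 in males, against 0% and 9.18%, and 0 of 6 for the interaction, against 0% and 6.66%. limma-voom and DESeq2 called none of the 6 in these comparisons. Of all genes they called 1 and 5 over both sexes, 1 and 3 in females, 1 and 17 in males, and 0 and 0 for the interaction.

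Bdnf in the Hypo was at 24.3, 21.8, 21.8, and 24.4 CPM in WT females and 27.2, 23.99, 23.2, 26.6, and 26.4 CPM in Ube3a2X females, and at 17.0, 16.5, 26.6, and 22.8 CPM in WT males and 20.4, 24.7, 22.7, 26.9, and 17.1 CPM in Ube3a2X males. The genotypes overlapped in both sexes. Sort1 had a mean log2 level 0.23 higher in Ube3a2X Hypo (exact permutation p = 0.0460 over 15876 arrangements, 1 of the same 14 tests). With each of the 18 libraries left out in turn the exact permutation p ran from 0.0214 to 0.143 and was above 0.05 for 12 of them. Without WT female 471 the difference fell to 0.09, and without WT male 251, the next lowest, it was 0.19. Vgf stood at 67.3 to 278 CPM in WT and 43.2 to 137 CPM in Ube3a2X Hypo, a log2 difference of the means of -0.43 (-0.54 in females, -0.33 in males, exact permutation p = 0.126), with the WT maximum again in WT female 471. The fitted effect of -0.24 on Vgf was -0.14 without WT female 398. Ntf3 was at 0.139 to 0.820 CPM in WT and 0.200 to 0.789 CPM in Ube3a2X Hypo (log2 difference of the means 0.26, exact permutation p = 0.410).

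Between the sexes, Ngfr in the Hypo came closest to a call. WT females were at 3.87, 9.34, 6.09, and 3.98 CPM and Ube3a2X females at 7.19, 5.04, 9.01, 4.38, and 4.99 CPM. WT males were at 8.38, 7.85, 7.12, and 8.40 CPM and Ube3a2X males at 6.78, 8.54, 8.23, 7.60, and 7.25 CPM. The 9 males lay in a narrow range of 6.78 to 8.54 CPM, which the females spanned on both sides, with 6 of 9 females below it. The log2 difference of males over females was 0.42 (SE 0.143, unadjusted p = 0.00994, edgeR adjusted p = 0.134), and it was called by DESeq2 alone (adjusted p = 0.0363, with 0.0363 to 0.492 over 9 settings). Ntrk3 was the other gene with an unadjusted p under 0.05 (log2 -0.11, SE 0.0458, edgeR adjusted p = 0.194), and its sign turned to positive without surrogate variables. In this comparison edgeR called 0 of 6 genes and 2 had an unadjusted p under 0.05, against 2.39% and 17.9% of all genes. DESeq2 called 5.64% of all genes and limma-voom 2.37%.

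Ntrk2 and Ntrk3 varied together over the libraries of a tissue. With the mean of each sex and genotype group removed, Pearson's r of log2-CPM was 0.73 in the PFC (n = 20, Spearman rho 0.65) and 0.94 in the Hypo (n = 18, rho 0.79), with permutation p adjusted over the 8 pairs computed of 9.20e-04 and 8.00e-05 for r and 0.00948 and 0.00144 for rho. The unadjusted p of the Hypo, 1e-05, is the smallest that 100000 permutations can give. Without the 2 libraries farthest from the median of Ntrk2, r was 0.60 in the PFC and 0.75 in the Hypo, where Hypo WT female 471, low in both genes, was one of them. The other pairs did not pass: Bdnf with Vgf had r = 0.44 in the PFC (permutation p 0.0491, adjusted 0.131; rho 0.32) and 0.04 in the Hypo, and Bdnf with Ntrk2 and Ntf3 with Ntrk3 had r between -0.38 and 0.25. All libraries share the depth, integrity, and base composition effects of their preparation, which were not removed here.

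**Figure D5:**
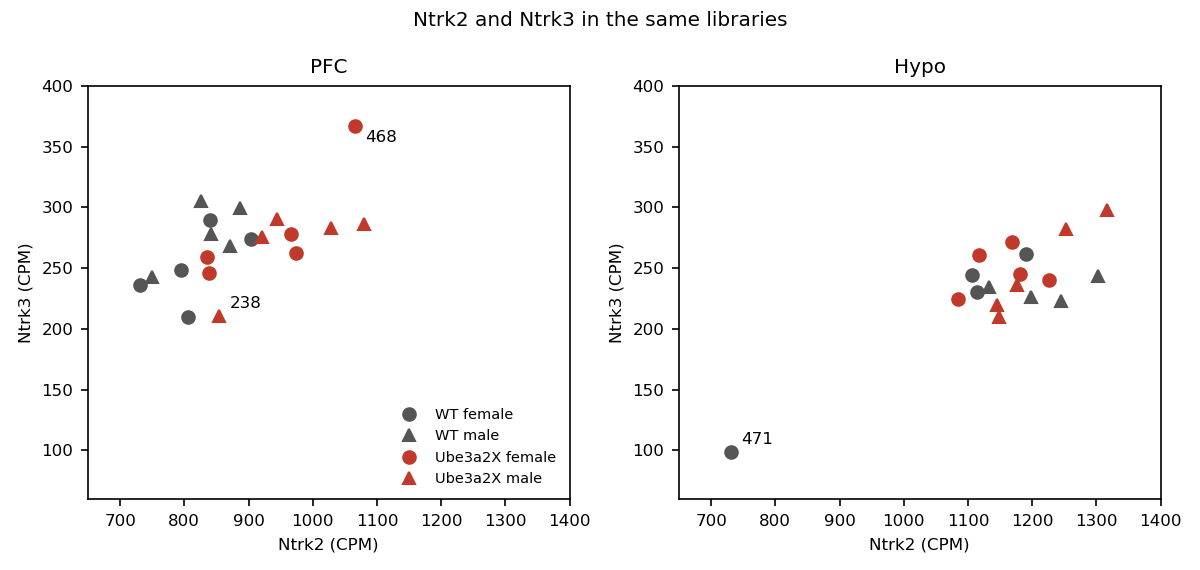
CPM of Ntrk3 against CPM of Ntrk2 in the same library, for the PFC (left) and the Hypo (right), by genotype (gray WT, red Ube3a2X) and sex (circles female, triangles male). Hypo WT female 471 lies alone at 731 CPM of Ntrk2 and 98.5 CPM of Ntrk3, and PFC Ube3a2X female 468 holds the highest Ntrk3 value (367 CPM).

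The genes most like each receptor over the libraries of a tissue were looked up on log2-CPM over all genes of the within-tissue models. In the PFC (20 libraries), Ntrk2 was most like Meis2 (Pearson r 0.88), Lzic (0.88), and Bmpr1a (0.85), Ntrk3 most like Zfp451 (0.91), Grin2b (0.88), and Csnk1g1 (0.86), and Sort1 most like Usp13 (0.93), Atrn (0.89), and Tmem178b (0.87). In the Hypo (18 libraries) the leading genes were Prkca (0.99) for Ntrk2, Tet1 (0.99) for Ntrk3, Fam168a (0.99) for Sort1, Tbc1d9b (0.82) for Ngfr, and Atp6v0c (0.98) for Vgf, with WT female 471 in every one of these correlations. For the ligands in the Hypo, Ntf3 was most like Bdnf itself (0.86), and Bdnf most like AI593442 (0.91). These are likenesses over few libraries and carry no test.

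The genes around the 7 in the pathway were described from fixed lists by the same contrast of PFC over Hypo, averaged over the groups, for which 63.4% of all genes were called, 31.0% higher and 32.4% lower in the PFC. No list was tested against this share. Of 9 other neurotrophins and receptors, 5 were higher and 3 lower in the PFC. The Nogo receptor gene Rtn4r (log2 4.13, SE 0.223, edgeR adjusted p = 3.93e-18) and its partner Lingo1 (2.57, SE 0.136, adjusted p = 2.39e-18), which can form a complex with p75, were higher. Sorcs2, a relative of sortilin, was lower (-0.88, SE 0.0911, adjusted p = 1.85e-10). The 13 regulators of Bdnf transcription gave 8 higher and 2 lower, with Mef2c at 4.82 (SE 0.115, adjusted p = 1.10e-28) and Rest, the repressor of neuronal genes, at -0.90 (SE 0.127, adjusted p = 1.40e-07). Of 15 genes induced by activity or TrkB signaling, 14 were higher and 0 lower. The smallest p were those of Egr3 (5.95, SE 0.255, adjusted p = 4.98e-21) and Nrn1 (2.90, SE 0.135, adjusted p = 5.34e-20).

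Of 12 proneurotrophin proteases and inhibitors tested (14 listed), 3 were higher and 6 lower in the PFC. The convertase gene Pcsk2 was higher (log2 1.34, SE 0.0769, edgeR adjusted p = 2.15e-17). Of 22 adaptors and effectors of the receptors, 4 were higher and 14 lower, among them Shc3 (1.34, SE 0.224, adjusted p = 3.28e-06) and the p75 partner genes Maged1 (-1.13, SE 0.0729, adjusted p = 6.81e-16) and Ndn (-2.24, SE 0.186, adjusted p = 5.76e-13). Of 8 granin and dense core vesicle genes, 4 were higher and 2 lower, with Chgb at 0.88 (SE 0.146, adjusted p = 2.85e-06) and Scg2 at -2.65 (SE 0.0874, adjusted p = 1.85e-24). The median log2 fold change was 0.17 over the 7 genes, 1.40 over the other neurotrophins and receptors, -0.40 over the proteases, -0.35 over the adaptors, 0.18 over the granins, 0.94 over the regulators, and 2.45 over the activity genes, against -0.02 over all 22282 genes. In the comparisons of genotype and sex within a tissue, 1 gene of these lists was called. It was Crtc1, a coactivator of CREB and 1 of 13 regulators tested, which was higher in male than in female Hypo (log2 0.19, SE 0.0399, edgeR adjusted p = 0.0216). None of the 6, 11, 19, 7, and 13 genes tested of the other 5 lists was called there, where 2.39% of all genes were. Leaving out Hypo WT female 471 or any other single library changed the number of the 7 genes called for the tissues to no less than 3 and no more than 5.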

How the data were processed

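RNA of the PFC and Hypo was sequenced as stranded mRNA libraries. The authors deposited raw read counts per gene (STAR on mm10/GRCm38, featureCounts) and a table of library quality, in which RIN and AT dropout are scores, the strand share is a fraction, and the 5'-to-3' bias is a ratio, as deposited by the authors. Here, tissues were compared in all 38 libraries with edgeR 4.0.16 (quasi-likelihood, TMM, filterByExpr, RIN as a covariate). Within a tissue, genes under 100 reads in 2 or more libraries and then the 15% with the lowest variance were left out, and RIN and 2 surrogate variables (sva 3.50.0) were added. A Benjamini-Hochberg adjusted p under 0.05 was a call. limma-voom 3.58.1, DESeq2 1.42.0 (R 4.3.3), and other filters, scalings, and covariates were alternatives, of which the strand share was added after the data were seen. Genotype was also tested per gene by exact permutation within sex. Each library came from its own mouse and tissue. The same mouse number in both tissues is the same mouse, and over the 13 such mice the deviations from the group means correlated at -0.309 to 0.211 (median -0.00559). Genes most like a member were the 3 with the highest Pearson r over the libraries of a tissue. The members and the pathway and marker lists were chosen with earlier results of these data known. Statistics were tested on simulated data. Gene positions are from GENCODE on GRCm38. Precision is limited by depth for Ntf3 and Ngfr.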

Additional observations from a re-analysis of the deposited data

Results flagged for a closer look

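Of 56 groups of 4 or 5 libraries (7 genes in 8 groups), 6 held a library far from the rest by Dixon's criterion, which chance meets in about 1 in 20 groups. In Hypo WT female 471, Ntrk2 was at 731 CPM (the other WT females 1107 to 1190 CPM), Ntrk3 at 98.5 CPM (230 to 262 CPM), and Sort1 at 120 CPM (253 to 271 CPM). This library held 4667 CPM of pituitary markers, and their part in the 3 low values was not tested. In the PFC, Ntrk3 was at 210 CPM in Ube3a2X male 238 (the others 276 to 290 CPM). Vgf was at 191 CPM in WT female 397 (110 to 119 CPM) and at 56.1 CPM in Ube3a2X female 468 (125 to 144 CPM), which also had the lowest AT dropout score of the PFC, 10.6.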

How the results depend on the processing

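The number of members called moved by over 1.5 times in 2 cases. Without RIN, 5 members were called for the tissues in Ube3a2X mice in place of 3. With DESeq2, 1 (Ngfr) was called for sex in the Hypo in place of 0, where DESeq2 called 5.64% of all genes and edgeR 2.39%. Smaller moves were 3 to 6 members for the averaged tissue difference (4 as reported), where Bdnf was lost in 1 of 10 settings, Ntf3 gained in 5 of 9, and Ntrk3 gained in 2 of 10. In edgeR on the 13 mice with both tissues, with the mouse as a replicate block and the other libraries left out, the averaged difference of Bdnf was 0.22 (adjusted p = 0.702) and that of Ntrk2 in Ube3a2X mice -0.32 (adjusted p = 0.179). With the block in limma-voom on all libraries, Bdnf kept its call (0.56, adjusted p = 0.0154). With each library left out in turn, 3 to 5 members were called for the averaged and the WT tissue differences, and Bdnf ran from 0.49 to 0.73. No direction of a called value turned. The low reads of Ntf3 and Ngfr in the PFC limit what could be seen there.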
